A study of Mus musculus with 51 samples.

Results

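The genes described here are 8 genes of mucus-producing goblet cells, measured in mouse lung: the transcription factors Spdef, Foxa3, Foxa2 and Creb3l1, the endoplasmic reticulum proteins Agr2 and Ern2, and the secreted trefoil peptides Tff1 and Tff2. They were chosen by symbol, with earlier results of these data known. Each was represented by 1 probe set. They make up 8 of the 22206 probe sets on the array, of which 19572 carry a single gene symbol. The study asked how lung gene expression answers respiratory exposure to methylene diphenyl diisocyanate (MDI), an isocyanate used to make polyurethane and a known cause of occupational asthma, given as its reaction products with the thiol glutathione (GSH), and whether crofelemer, a plant-derived chloride channel inhibitor, alters that answer. All mice were males of 6 to 8 weeks whose skin had been sensitized with 1% MDI in acetone, the controls included. MDI-GSH or a control solution, in which MDI and GSH had been reacted separately, was given to the anaesthetized mice through the airways 4 times, 15, 16, 19 and 20 days from the first skin exposure, and whole lung RNA (250 ng) was taken 48 h after the last exposure. Crofelemer was given intranasally at 4 mg/kg, 4 h before each airway exposure.

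The comparisons used 49 arrays in 8 groups. BALB/c mice (Balb/c in the labels) gave 3 arrays with MDI-GSH and 3 with control solution, and B-cell deficient mice, which carry the targeted Ighm allele of strain B6.129S2-Ighmtm1Cgn/J, gave 7 and 9. C57BL/6 mice that received crofelemer gave 3 arrays with MDI-GSH and 5 with control solution, and C57BL/6 mice without it gave 13 and 6. The records were submitted in 3 runs, called submission blocks here, which the labels do not name as batches. The B-cell deficient MDI arrays lay 4 and 3 in 2 of them, with all 9 of their controls in 1. Below, MDI stands for MDI-GSH and control for the control solution. Array means of the log2 signal ran from 7.37 to 7.40 for BALB/c, from 8.02 to 8.07 for B-cell deficient, from 7.43 to 7.48 for crofelemer-treated and from 7.48 to 7.51 for other C57BL/6 mice, ranges that do not overlap, so a level set across these sets carries any difference in their processing. As a check of the tissue, the mean log2 level of 8 alveolar type 2 cell markers lay between 17.10 and 18.02 in all 49 arrays, and that of 7 club cell markers between 15.51 and 17.51.

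Goblet cells of the airway make and release gel-forming mucins. In mice, interleukin 13 acting through Stat6 turns on Spdef in airway secretory cells, and Spdef together with Foxa3 directs them toward the goblet cell fate while Foxa2 restrains it. The mucin chains are very large and rich in disulfide bonds, and they are folded in the endoplasmic reticulum with the help of Agr2, under the watch of the stress sensor that Ern2 encodes. Trefoil peptides are small, disulfide-stabilized proteins secreted with mucins and best known from the stomach and intestine.

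Agr2 and Tff2 had the largest differences among the 8 genes in all 4 sets of mice. With MDI, Agr2 rose 4.92-fold to 5.50-fold and Tff2 4.99-fold to 20.5-fold in BALB/c, B-cell deficient and C57BL/6 lungs. In C57BL/6 lungs Spdef, Tff1 and Foxa3 also rose and Foxa2 fell, and in B-cell deficient lungs Spdef, Ern2 and Creb3l1 rose. The Foxa3 and Creb3l1 calls were lost in some fits that left out an array and in some other settings. The Agr2 call in BALB/c lungs was lost in 2 of the 6 fits that left out an array. With the replicate number as a block, the Tff1 call in C57BL/6 lungs was lost. The Spdef call in B-cell deficient lungs was lost within 1 submission block. With crofelemer no member passed the threshold for MDI against control, where 0.0360% of all probe sets were called higher and 0.0180% lower. Agr2 and Tff2 were lower in crofelemer-treated MDI lungs than in MDI lungs without the drug, and Tff2 was also lower with crofelemer in control lungs. The direct test of whether crofelemer changed the MDI effect called no member (adjusted p in limma = 0.0694 for Agr2 and 0.816 for Tff2). In RNA from whole lung, fewer cells of a type and less RNA per cell cannot be told apart.

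The members called are counted here beside the share of all probe sets called. The members were chosen with earlier results of these data known, so the counts are descriptions and not independent evidence. In BALB/c lungs MDI raised 2 of 8 members and lowered none, while 0.261% of all probe sets were called higher and 0.0405% lower, and 5 members passed an unadjusted p of 0.05. In B-cell deficient lungs 5 of 8 were higher and none lower, against 16.2% and 20.7% of all probe sets. C57BL/6 lungs with crofelemer had 0 of 8 called in limma, against 0.0360% called higher and 0.0180% lower, and 1 member passed an unadjusted p of 0.05. In C57BL/6 lungs without crofelemer 5 of 8 were higher and 1 lower, against 5.30% and 9.23% of all probe sets. The median log2 fold change of the 8 members was 0.46 in BALB/c, 0.49 in B-cell deficient, 0.25 in crofelemer-treated and 0.47 in other C57BL/6 lungs, beside medians between -0.06 and 0.01 over all probe sets. Centring each array on its median changed the split of called probe sets in C57BL/6 lungs to 1573 higher and 1609 lower, against 1176 and 2049 as deposited. Within the submission block that holds 12 of the 13 MDI and 4 of the 6 control arrays of C57BL/6 mice, the log2 fold changes were 2.21 for Agr2, 1.87 for Tff2, 0.82 for Spdef, 0.64 for Tff1 and -0.75 for Foxa2, all called, and 0.33 for Foxa3, not called (adjusted p = 0.133).

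**Figure D1:**
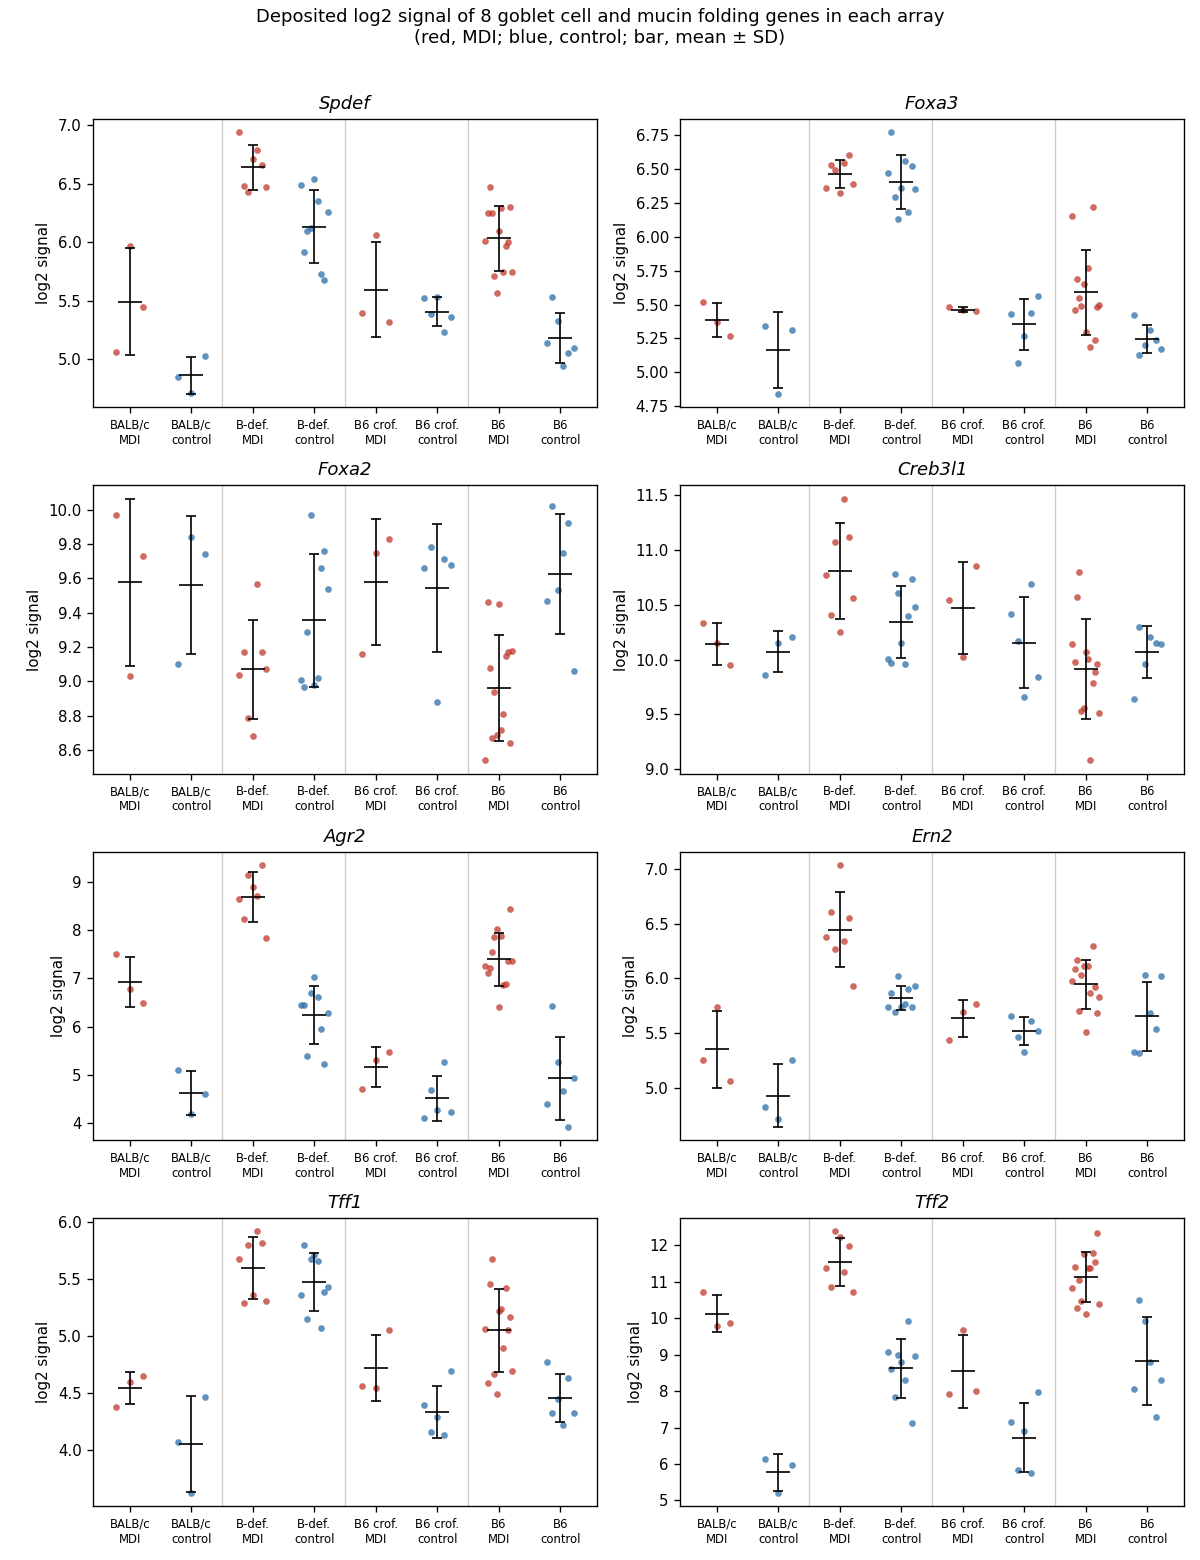
Deposited log2 signal of each member in each of the 49 arrays, by group, 1 panel per gene (each with its own vertical axis). Red points are MDI arrays, blue points control arrays, and black bars the group mean ± SD. B-def. stands for B-cell deficient, B6 for C57BL/6 and crof. for crofelemer. Agr2 and Tff2 show the widest separation of MDI from control arrays, and the B-cell deficient arrays sit high for Spdef, Foxa3 and Tff1 in both groups.

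SPDEF belongs to the ETS family of transcription factors, and mice without it lack airway goblet cells after allergen exposure. The 250 bases before the annotated start of Spdef and of Agr2 are shown because the regulator and the folding factor of the set both rose with MDI in C57BL/6 and B-cell deficient lungs. They come from RefSeq, build GRCm38.p6, and are printed 5′ to 3′ on the strand of the gene, at chr17:27728952-27729201 (minus strand) for Spdef and chr12:35992675-35992924 (plus strand) for Agr2.
Spdef: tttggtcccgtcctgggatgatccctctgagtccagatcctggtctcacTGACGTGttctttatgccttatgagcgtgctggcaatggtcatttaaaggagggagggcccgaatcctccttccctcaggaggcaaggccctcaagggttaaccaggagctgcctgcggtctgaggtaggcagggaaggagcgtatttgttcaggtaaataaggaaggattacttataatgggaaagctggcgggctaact
Agr2: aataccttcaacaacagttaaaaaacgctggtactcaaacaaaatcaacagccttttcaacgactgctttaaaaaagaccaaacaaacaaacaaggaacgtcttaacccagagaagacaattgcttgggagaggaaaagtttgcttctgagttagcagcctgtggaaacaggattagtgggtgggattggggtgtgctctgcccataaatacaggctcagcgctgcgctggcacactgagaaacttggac
The capitals mark TGACGTG, the core bound by factors of the unfolded protein response and by CREB-type factors, which lies 201 to 195 bases before the Spdef start. Windows of the same length before 32851 annotated starts were searched on both strands for 6 motifs, and the share with a match was 1.65% for TGACGTG, 3.17% for the FOXA core TGTTTAC, 4.94% for the SPDEF-type ETS core CCGGAT, 7.02% for the STAT spacing (TTC and GAA 3 bases apart), 5.85% for the wider STAT6 spacing (4 bases apart) and 0.113% for the endoplasmic reticulum stress element. Of the 8 members, 4 had windows in this table: Spdef, Foxa3 and Agr2 with 1 start each and Foxa2 with 3. No other match to the 6 motifs was found in these windows. A match is a description of the letters and says nothing about binding.

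Spdef rose with MDI in C57BL/6 and in B-cell deficient lungs. In C57BL/6 lungs its log2 signal had a lowest, median and highest value of 5.57, 6.01 and 6.47 with MDI, against 4.94, 5.12 and 5.53 with control. Each of the 13 MDI arrays lay above each of the 6 control arrays. The log2 fold change was 0.85 ± 0.13 (SE, a 1.80-fold rise), with an adjusted p of 1.40e-05 in limma (Benjamini-Hochberg over all 22206 probe sets, threshold 0.05). Spdef in B-cell deficient lungs had a lowest, median and highest value of 6.43, 6.66 and 6.94 with MDI, against 5.68, 6.12 and 6.54 with control, and 4 of the 7 MDI arrays lay above all 9 controls. That rise was 0.51 ± 0.14 on the log2 scale (adjusted p = 0.00325), and between the 3 MDI and 9 control arrays of 1 submission block it was also 0.51, with an adjusted p of 0.0550.

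In BALB/c lungs Spdef read 5.06, 5.97 and 5.45 with MDI, against 4.85, 4.71 and 5.03 with control. The MDI arrays lay above the controls by at least 0.03, but the log2 fold change of 0.63 ± 0.22 missed the threshold (adjusted p = 0.421). With crofelemer, Spdef read 5.40, 6.06 and 5.32 in MDI lungs, against 5.52, 5.39, 5.53, 5.23 and 5.36 in control lungs. A single MDI array, replicate 2, stood above the controls, and the log2 fold change was 0.19 ± 0.20 (adjusted p = 0.886).

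Foxa3 is a forkhead factor that can drive goblet cell metaplasia when it is overexpressed in mouse airways. It rose by a small margin in C57BL/6 lungs, where it had a lowest, median and highest log2 signal of 5.19, 5.50 and 6.22 with MDI, against 5.13, 5.22 and 5.42 with control, and 10 of 13 MDI arrays exceeded all 6 controls. Its log2 fold change was 0.35 ± 0.11 (adjusted p = 0.0329). This call was lost in 8 of the 19 fits that left out an array (the adjusted p reached 0.0795 without C57BL/6 control replicate 2) and in 5 of 8 other settings. Foxa3 in B-cell deficient lungs had medians of 6.49 for MDI and 6.36 for control and a log2 fold change of 0.06 ± 0.12 (adjusted p = 0.725). BALB/c lungs had 5.52, 5.37 and 5.27 with MDI, against 5.34, 4.84 and 5.31 with control, and crofelemer-treated lungs had 5.48, 5.46 and 5.45 with MDI, against 5.43, 5.07, 5.27, 5.44 and 5.56 with control. Both pairs of groups overlapped, and the log2 fold changes of 0.22 and 0.11 were not called.

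Foxa2 is the forkhead factor that keeps airway cells from mucous differentiation, and it was the member that fell with MDI in C57BL/6 lungs. Its lowest, median and highest log2 signal was 8.54, 8.94 and 9.46 with MDI, against 9.06, 9.64 and 10.02 with control, and 7 of 13 MDI arrays lay below every control array. Its log2 fold change was -0.66 ± 0.17 (adjusted p = 0.00462). In B-cell deficient lungs the 3 values were 8.68, 9.07 and 9.57 with MDI, against 8.97, 9.29 and 9.97 with control, and the log2 fold change of -0.29 ± 0.17 was not called (adjusted p = 0.190). Between the 3 MDI and 9 control arrays of 1 submission block it was -0.09 (adjusted p = 0.827). Without 4 control arrays whose values were spread less widely it was -0.57 (adjusted p = 0.0299), after quantile normalization -0.46 (adjusted p = 0.0208), and it was not called under the other 8 alternatives.

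No difference in Foxa2 was detected in the other pairs of groups. BALB/c lungs read 9.97, 9.03 and 9.73 with MDI, against 9.10, 9.84 and 9.74 with control, which gave a log2 fold change of 0.02 with a 95% interval of -0.54 to 0.58. Crofelemer-treated lungs read 9.16, 9.75 and 9.83 with MDI, against 9.66, 9.78, 8.88, 9.71 and 9.68 with control, a log2 fold change of 0.04 with an interval of -0.46 to 0.54. The array at 8.88, control replicate 3, stood apart from the other 4. Foxa1, a close relative of Foxa2 with overlapping targets, had a log2 fold change with MDI of -0.50 ± 0.13 in B-cell deficient lungs, where it fell (adjusted p = 0.00293), and of -0.36 ± 0.13 in C57BL/6 lungs, which did not pass (adjusted p = 0.0522).

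Creb3l1 encodes a membrane-bound factor of the endoplasmic reticulum that is cut free to activate genes of the secretory pathway. In B-cell deficient lungs its lowest, median and highest log2 signal was 10.25, 10.77 and 11.47 with MDI, against 9.96, 10.40 and 10.78 with control. The ranges overlapped, 3 of 7 MDI arrays exceeded every control, and the log2 fold change was 0.46 ± 0.18 (adjusted p = 0.0424). This call was lost in 8 of the 16 fits that left out an array (MDI replicates 1, 3, 5 and 6 and control replicates 1, 2, 5 and 6, adjusted p up to 0.138). It was also lost after median centring (adjusted p = 0.0592), after quantile normalization (adjusted p = 0.151) and without the 4 control arrays of narrow spread, where Creb3l1 was at 0.21 (adjusted p = 0.548), while within 1 submission block it was at 0.71 (adjusted p = 0.0362). In C57BL/6 lungs Creb3l1 ranged more widely with MDI, from 9.08 to 10.80, than with control, from 9.64 to 10.30, and the log2 fold change was -0.15 ± 0.18 (adjusted p = 0.643). In BALB/c and crofelemer-treated lungs it was 0.07 ± 0.30 and 0.31 ± 0.27, with overlapping arrays.

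AGR2 is a protein disulfide isomerase of the endoplasmic reticulum that binds mucins while they fold, and mice without it make little intestinal mucin. Agr2 rose with MDI in the 3 sets of mice that received no crofelemer. In BALB/c lungs it read 7.51, 6.79 and 6.50 with MDI, against 5.10, 4.19 and 4.61 with control, a gap of 1.40 between the nearest arrays. The log2 fold change was 2.30 ± 0.44, or 4.92-fold (adjusted p = 0.00306). Without control replicate 2 the adjusted p was 0.0652, and without MDI replicate 1 it was 0.0796.

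Agr2 in B-cell deficient lungs had a lowest, median and highest log2 signal of 7.84, 8.70 and 9.35 with MDI, against 5.23, 6.45 and 7.03 with control. The groups did not overlap, the log2 fold change was 2.45 ± 0.27, or 5.47-fold (adjusted p = 1.28e-09), and within 1 submission block it was 2.40. In C57BL/6 lungs the values were 6.40, 7.35 and 8.43 with MDI, against 3.93, 4.81 and 6.42 with control, and 12 of 13 MDI arrays exceeded every control. The log2 fold change was 2.46 ± 0.27, or 5.50-fold (adjusted p = 2.40e-09). With crofelemer, Agr2 read 4.71, 5.31 and 5.48 in MDI lungs, against 4.11, 4.69, 4.28, 5.27 and 4.23 in control lungs. The groups overlapped, and the log2 fold change of 0.65 ± 0.40 was not called (adjusted p = 0.720).

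ERN2 (IRE1 beta) is the form of the unfolded protein sensor found in mucus-secreting epithelia. Ern2 rose in B-cell deficient lungs, where its lowest, median and highest log2 signal was 5.93, 6.38 and 7.04 with MDI, against 5.69, 5.77 and 6.02 with control, and 6 of 7 MDI arrays exceeded every control. The log2 fold change was 0.62 ± 0.13 (adjusted p = 0.000144), and 0.45 within 1 submission block (adjusted p = 0.0453). In C57BL/6 lungs the 3 values were 5.51, 5.98 and 6.30 with MDI, against 5.32, 5.61 and 6.03 with control, and the log2 fold change of 0.29 ± 0.12 was not called (adjusted p = 0.110). BALB/c lungs had 5.25, 5.74 and 5.06 with MDI, against 4.82, 4.71 and 5.25 with control, and the log2 fold change of 0.42 ± 0.21 was not called either (adjusted p = 0.865). With crofelemer the log2 fold change was 0.12 ± 0.18.

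Tff2 encodes the trefoil peptide known as spasmolytic polypeptide, made by mucous neck cells of the stomach and by mouse airways in allergic inflammation. It had the largest MDI difference of the 8 genes in BALB/c lungs, with readings of 10.73, 9.80 and 9.86 with MDI, against 6.14, 5.20 and 5.97 with control. The lowest MDI array lay 3.66 above the highest control, and the log2 fold change was 4.36 ± 0.61, or 20.5-fold (adjusted p = 5.65e-06). Tff2 in B-cell deficient lungs had a lowest, median and highest value of 10.72, 11.39 and 12.39 with MDI, against 7.12, 8.81 and 9.93 with control, without overlap. That log2 fold change was 2.93 ± 0.38, or 7.60-fold (adjusted p = 3.90e-08), and 2.70 within 1 submission block.

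Tff2 varied more among C57BL/6 control lungs (SD 1.21, n = 6) than within any of the other 7 groups: the lowest, median and highest value was 10.11, 11.39 and 12.35 with MDI, against 7.28, 8.56 and 10.51 with control. This was a log2 fold change of 2.32 ± 0.37, or 4.99-fold (adjusted p = 1.48e-05), and 9 of 13 MDI arrays exceeded every control. With crofelemer Tff2 read 7.92, 9.69 and 8.01 in MDI lungs, against 7.15, 5.84, 6.91, 5.74 and 7.97 in control lungs. Of the 3 MDI arrays, 2 exceeded all 5 controls, and the log2 fold change of 1.82 ± 0.55 was not called (adjusted p = 0.255).

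Tff1, a trefoil peptide of the surface mucous cells of the stomach, lies next to Tff2 on mouse chromosome 17, in the gene order Tff3, Tff2, Tff1 of the RefSeq annotation. It rose in C57BL/6 lungs, where its lowest, median and highest log2 signal was 4.49, 5.06 and 5.68 with MDI, against 4.22, 4.39 and 4.77 with control, and 9 of 13 MDI arrays exceeded every control. The log2 fold change was 0.60 ± 0.14 (adjusted p = 0.00269). A filter on dim probe sets removed Tff1, and with the replicate number as a block its difference was 0.54 and not called (adjusted p = 0.110). In B-cell deficient lungs the 3 values were 5.29, 5.68 and 5.92 with MDI, against 5.07, 5.43 and 5.80 with control, and the log2 fold change was 0.12 ± 0.15 (adjusted p = 0.525). BALB/c lungs read 4.38, 4.60 and 4.65 with MDI, against 4.07, 3.62 and 4.46 with control, and crofelemer-treated lungs 4.56, 4.54 and 5.05 with MDI, against 4.39, 4.16, 4.29, 4.13 and 4.69 with control. Both pairs overlapped, and their log2 fold changes of 0.49 ± 0.24 and 0.38 ± 0.21 were not called. Tff3, the intestinal trefoil peptide encoded on the other side of Tff2, had log2 fold changes of -0.05 in BALB/c, -0.15 in B-cell deficient, -0.22 in crofelemer-treated and -0.12 in other C57BL/6 lungs, none of them called.

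**Figure D2:**
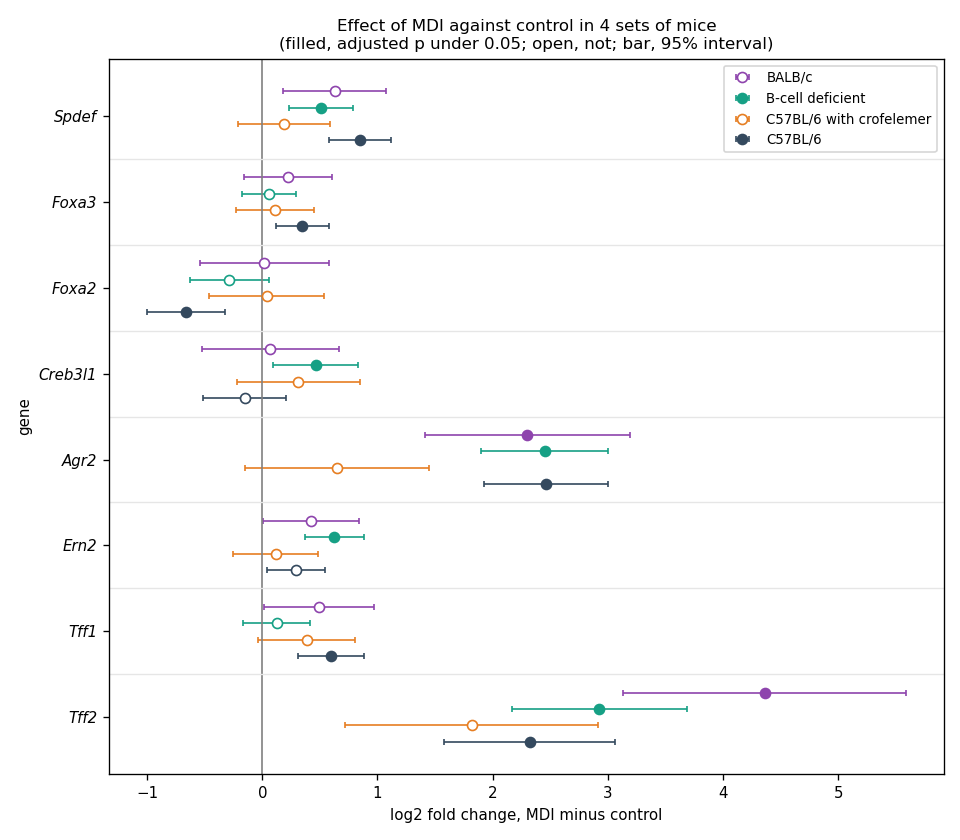
Log2 fold change of MDI minus control (horizontal axis) for each member (vertical axis) in the 4 sets of mice, with 95% intervals from limma. Filled points passed an adjusted p of 0.05. The points for Agr2 lie at 2.30, 2.45 and 2.46 without crofelemer and at 0.65 with it, and the Tff2 points lie between 1.82 and 4.36.

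Across the 8 groups, Agr2 was highest in B-cell deficient MDI lungs at a mean log2 signal of 8.69 ± 0.52 (SD), followed by C57BL/6 MDI lungs at 7.40 ± 0.55, BALB/c MDI lungs at 6.93 ± 0.52, B-cell deficient controls at 6.23 ± 0.60, crofelemer MDI lungs at 5.17 ± 0.40, C57BL/6 controls at 4.94 ± 0.86, BALB/c controls at 4.63 ± 0.46 and crofelemer controls at 4.52 ± 0.47. The order for Tff2 was B-cell deficient MDI at 11.55 ± 0.66, C57BL/6 MDI at 11.14 ± 0.68, BALB/c MDI at 10.13 ± 0.52, C57BL/6 controls at 8.82 ± 1.21, B-cell deficient controls at 8.62 ± 0.80, crofelemer MDI at 8.54 ± 1.00, crofelemer controls at 6.72 ± 0.94 and BALB/c controls at 5.77 ± 0.50. For both genes, each group overlapped with the next in this order. Spdef, Foxa3 and Tff1 were highest in the 2 B-cell deficient groups, the set with the highest array means. Foxa2 and Creb3l1 spanned less, with group means from 8.96 to 9.63 for Foxa2 and from 9.91 to 10.81 for Creb3l1.

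The MDI effect in 1 set was then compared with that in C57BL/6 lungs without crofelemer, as a difference of differences. These comparisons share the C57BL/6 arrays. For B-cell deficient minus C57BL/6 mice none of the 8 members was called in limma, against 9.27% of all probe sets called higher and 11.0% lower, and 2 passed an unadjusted p of 0.05. Creb3l1 came nearest, at 0.61 ± 0.26 on the log2 scale (adjusted p = 0.0784), then Tff1 at -0.47 ± 0.20 (adjusted p = 0.0887). The difference for Agr2 was -0.01 with a 95% interval of -0.78 to 0.76, and for Tff2 0.61 with an interval of -0.45 to 1.67. After median centring 1476 probe sets were called higher and 3697 lower, against 2059 and 2443 as deposited, and Tff1 was then called (-0.57, adjusted p = 0.0406).

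For BALB/c minus C57BL/6 mice none of the 8 members was called in limma, against 0.0135% of all probe sets in each direction, and 2 passed an unadjusted p of 0.05. For Tff2 the log2 difference was 2.04 ± 0.71, with a 95% interval of 0.61 to 3.47 and an adjusted p of 0.402. Foxa2 had 0.68 ± 0.33 (adjusted p = 0.607), and Agr2 -0.16 with an interval of -1.20 to 0.88.

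Crofelemer-treated MDI lungs held less Agr2 and Tff2 RNA than MDI lungs without the drug. All 3 crofelemer MDI arrays lay below all 13 MDI arrays for both genes: the highest reading of Agr2 was 5.48, against a lowest of 6.40, and the highest of Tff2 was 9.69, against a lowest of 10.11. How many of all probe sets separate these groups in this way was not counted, and the array means of these sets do not overlap. The log2 difference was -2.23 ± 0.35 for Agr2 (adjusted p = 9.39e-07) and -2.60 ± 0.48 for Tff2 (adjusted p = 2.10e-05). Spdef, at 5.40, 6.06 and 5.32 against a lowest of 5.57 and a median of 6.01, was lower by the test, at -0.44 ± 0.17 (adjusted p = 0.0477). Foxa2 was higher, at 9.16, 9.75 and 9.83 against a median of 8.94 and a highest of 9.46, with a difference of 0.62 ± 0.22 (adjusted p = 0.0241). That made 3 of 8 members lower and 1 higher, beside 17.5% and 15.0% of all probe sets.

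The Spdef and Foxa2 calls depended on single arrays and on the setting. The Spdef call was lost in 9 of the 16 fits that left out an array, 7 of them without a C57BL/6 MDI array (replicate 2, 3, 4, 7, 8, 11 or 12, adjusted p from 0.0524 to 0.0679). It was also lost in 5 of 8 other settings, among them median centring (-0.34, adjusted p = 0.123) and 1 submission block alone (-0.46, adjusted p = 0.0515). Without crofelemer MDI replicate 1 or 3 the Spdef difference was -0.34 (adjusted p = 0.255) or -0.30 (adjusted p = 0.303), and without replicate 2 or 3 that of Foxa2 was 0.53 (adjusted p = 0.120) or 0.49 (adjusted p = 0.161). With the replicate number as a block, over the 3 numbers the 2 groups share, Spdef was at -0.65 (adjusted p = 0.170) and Foxa2 at 0.55 (adjusted p = 0.214), while Agr2 at -2.03 and Tff2 at -2.30 kept adjusted p-values of 0.000817 and 0.000535. Ern2, Tff1, Foxa3 and Creb3l1 had differences of -0.31, -0.33, -0.13 and 0.56, not called, although Creb3l1 was called after quantile normalization (0.73, adjusted p = 0.0112) and after median centring (0.65, adjusted p = 0.0200).

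In control lungs Tff2 was the member that differed with crofelemer. It read 7.15, 5.84, 6.91, 5.74 and 7.97 with crofelemer, against a lowest, median and highest of 7.28, 8.56 and 10.51 without it, and 4 of the 5 crofelemer arrays lay below every control. The log2 difference was -2.09 ± 0.45 (adjusted p = 0.000178), and -2.92 between the 4 arrays of each group in 1 submission block. Agr2 read 4.11, 4.69, 4.28, 5.27 and 4.23 with crofelemer, within the range of 3.93 to 6.42 without it, and the difference of -0.42 ± 0.33 was not called (adjusted p = 0.322). The other 6 members had differences between -0.14 (Ern2) and 0.22 (Spdef), none called. Of the 8 members, 1 was called lower and none higher, beside 21.4% and 17.6% of all probe sets. Median centring moved the median of all probe sets by 0.15 here and the counts of calls to 6879 higher and 3730 lower, against 3916 and 4753 as deposited, and in MDI lungs to 4867 higher and 3332 lower, against 3336 and 3896. The signs of the uncalled Foxa2, Ern2 and Tff1 differences in control lungs flipped with it.

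**Figure D3:**
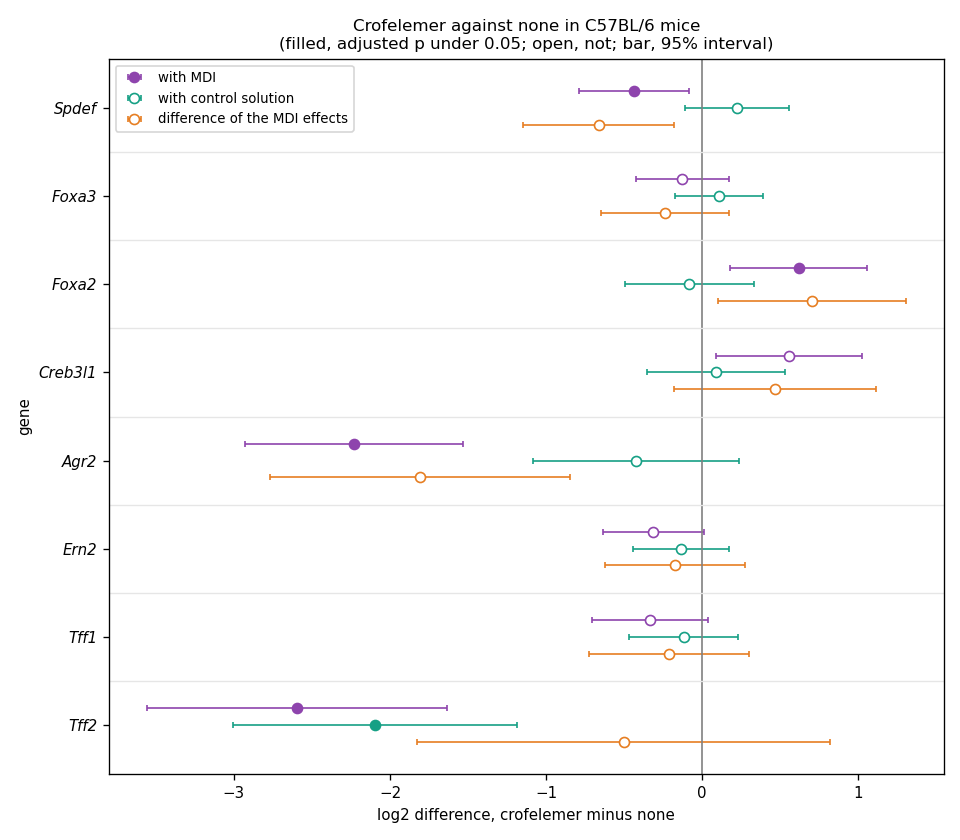
Log2 difference of crofelemer minus none (horizontal axis) for each member (vertical axis) in MDI lungs and in control lungs of C57BL/6 mice, and the difference of the MDI effects, with 95% intervals from limma. Filled points passed an adjusted p of 0.05. Agr2 lies at -2.23 in MDI lungs and -0.42 in control lungs, Tff2 at -2.60 and -2.09.

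The direct test of whether crofelemer changed the MDI effect called none of the 8 members in limma, against 0.180% of all probe sets called higher and 0.243% lower, and 3 members passed an unadjusted p of 0.05. For Agr2 the log2 MDI effect with crofelemer minus that without was -1.81 ± 0.48, with a 95% interval of -2.77 to -0.85, and missed the threshold (adjusted p = 0.0694). Without C57BL/6 control replicate 2 that difference was -2.11 (adjusted p = 0.0133) and without C57BL/6 MDI replicate 7 it was -1.89 (adjusted p = 0.0496). The other 25 fits that left out an array and all 8 other settings left Agr2 uncalled, with the value nearest to 0, -1.03 (adjusted p = 0.716), under the replicate block. For Tff2 it was -0.50 ± 0.66, with an interval of -1.82 to 0.82 (adjusted p = 0.816), for Spdef -0.66 ± 0.24 (adjusted p = 0.235) and for Foxa2 0.70 ± 0.30 (adjusted p = 0.317). Median centring changed the split of all calls to 26 higher and 75 lower, against 40 and 54 as deposited, and in MDI against control with crofelemer quantile normalization changed it to 10 higher and 12 lower, against 8 and 4.

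Epithelial, stromal and eosinophil markers moved with crofelemer as well. All 7 ciliated cell markers measured were lower with it in MDI lungs and in control lungs, and their mean log2 level lay between 7.12 and 7.95 in crofelemer MDI arrays, against 8.60 to 9.68 in MDI arrays. In control lungs it lay between 6.98 and 7.76 with crofelemer, against 9.18 to 9.72 without it. Club cell markers were lower for 3 of 7 in MDI lungs and 7 of 7 in control lungs, while 5 of 6 general epithelial markers were higher in both, among them Krt8 by 1.83 ± 0.21 in MDI lungs (adjusted p = 1.15e-09) and 1.85 ± 0.20 in control lungs (adjusted p = 1.28e-10). Of 5 fibroblast markers 3 were higher and 1 lower in both. Eosinophil markers were lower for 4 of 5 in MDI lungs (Alox15, Ccr3, Siglecf and Prg2) and none was higher, and their mean log2 level lay between 6.56 and 7.26 in crofelemer MDI arrays, against 7.38 to 9.55 in MDI arrays. In control lungs 2 of the 5 were lower and 1 higher. These counts stand beside 17.5% of all probe sets called lower and 15.0% higher with crofelemer in MDI lungs. In control lungs the shares were 21.4% lower and 17.6% higher. The part of the marker shifts in the Agr2 and Tff2 results was not tested. No source used here says whether arrays with and without crofelemer were normalized together, so the drug and the processing of its set cannot be told apart.

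Among 19 measured mucins and other goblet cell products, MDI raised 10 in BALB/c lungs, 12 in B-cell deficient lungs, where 2 fell, 3 in crofelemer-treated lungs and 10 in other C57BL/6 lungs. The shares of all probe sets called higher were 0.261%, 16.2%, 0.0360% and 5.30% in the same order, and 20.7% were lower in B-cell deficient lungs. The median log2 fold change of the 19 was 1.54 in BALB/c, 1.35 in B-cell deficient, 0.85 in crofelemer-treated and 1.38 in other C57BL/6 lungs. Muc5ac, the gel-forming mucin that AGR2 and ERN2 serve, rose by 5.89 ± 0.64 in BALB/c (adjusted p = 1.07e-08), 5.32 ± 0.40 in B-cell deficient (adjusted p = 1.19e-14) and 5.41 ± 0.39 in C57BL/6 lungs (adjusted p = 3.07e-15) on the log2 scale, against 1.52 ± 0.58 with crofelemer, which was not called (adjusted p = 0.428). Muc5b, the mucin of the resting airway, rose by 4.08 in BALB/c, 2.48 in B-cell deficient and 1.95 in C57BL/6 lungs and was at 1.03 with crofelemer, not called. Clca1, a secreted goblet cell protein, rose in all 4 sets, by 8.41 in B-cell deficient, 7.86 in crofelemer-treated and 8.12 in other C57BL/6 lungs. In BALB/c lungs Clca1 read 16.28, 16.06 and 16.03 with MDI, against 5.13, 2.29 and 3.39 with control, and since 2.29 was the lowest value on its array, the size of that rise is not given. The MDI effect with crofelemer minus without was called lower for 5 of the 19, which are named here after their values were seen: Muc5ac (-3.88 ± 0.69, adjusted p = 0.00397), the actin-severing protein Scin (-1.83, adjusted p = 0.00344), the chitinase Chia1 (-3.47, adjusted p = 0.00578), the anion exchanger Slc26a4 (-4.26, adjusted p = 0.0144) and the lipoxygenase Alox15 (-2.54, adjusted p = 0.0261), which is also listed among the eosinophil markers and was the 1 of those 5 called lower there. The median over the 19 was -0.36, against 0.02 over all probe sets, of which 0.243% were called lower. Between crofelemer and none, 9 of the 19 were lower and 2 higher in MDI lungs, beside 17.5% and 15.0% of all probe sets. In control lungs 6 were lower and 5 higher, beside 21.4% and 17.6%.

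Of the 24 measured genes for folding in the endoplasmic reticulum and its stress response, MDI raised 5 and lowered 2 in B-cell deficient lungs and raised 3 and lowered 1 in C57BL/6 lungs, and it called none in the other 2 sets. Of all probe sets, 16.2% were called higher and 20.7% lower in B-cell deficient lungs, and 5.30% and 9.23% in C57BL/6 lungs. Sdf2l1, a chaperone cofactor, rose by 1.14 ± 0.21 in B-cell deficient lungs (adjusted p = 2.73e-05) and 0.79 ± 0.20 in C57BL/6 lungs (adjusted p = 0.00482), and P4hb, the general protein disulfide isomerase, by 0.55 ± 0.13 in B-cell deficient lungs (adjusted p = 0.00123) and 0.47 ± 0.13 in C57BL/6 lungs (adjusted p = 0.0104). Xbp1, the transcript that IRE1 enzymes splice, fell by 0.45 in C57BL/6 lungs (adjusted p = 0.0447). The list's median log2 fold change was at most 0.15 in the 4 sets. With crofelemer, 9 were lower and 5 higher in MDI lungs and 8 lower and 5 higher in control lungs, with Hsp90b1, an endoplasmic reticulum chaperone, at -1.91 ± 0.17 in MDI lungs (adjusted p = 2.15e-13) and -1.62 ± 0.16 in control lungs (adjusted p = 3.60e-12). The shares of all probe sets were 17.5% lower and 15.0% higher in MDI lungs, and 21.4% and 17.6% in control lungs.

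Enzymes that attach sugars to mucins were listed too. Of 20 measured, 7 rose and 2 fell in B-cell deficient lungs, 6 rose and 3 fell in C57BL/6 lungs, and none was called in BALB/c or crofelemer-treated lungs. Galnt6, which starts O-linked chains, rose by 1.34 ± 0.14 in B-cell deficient lungs (adjusted p = 5.16e-10) and 0.74 ± 0.14 in C57BL/6 lungs (adjusted p = 0.000210). Gcnt1, which branches them, rose by 1.78 ± 0.21 in B-cell deficient lungs (adjusted p = 3.08e-09) and 0.94 ± 0.20 in C57BL/6 lungs (adjusted p = 0.000846). Of 12 genes for interleukin 4 and 13 signalling, 6 rose and none fell in B-cell deficient lungs and 3 rose and 1 fell in C57BL/6 lungs. The cytokine Il4 rose by 2.67 ± 0.23 in B-cell deficient lungs (adjusted p = 5.00e-13) and 1.20 ± 0.22 in C57BL/6 lungs (adjusted p = 0.000125), and Stat6, the factor upstream of Spdef, fell by 0.63 in C57BL/6 lungs (adjusted p = 3.30e-05). Of 13 relatives of the 4 transcription factors, 4 rose and 6 fell in B-cell deficient lungs and 1 rose and 4 fell in C57BL/6 lungs. Creb3l2, the nearest relative of Creb3l1, fell by 0.67 in B-cell deficient lungs (adjusted p = 0.000348) and 0.52 in C57BL/6 lungs (adjusted p = 0.00914). The counts of these lists stand beside 16.2% of all probe sets called higher and 20.7% lower in B-cell deficient lungs. In C57BL/6 lungs the shares were 5.30% and 9.23%.

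Markers of other cell types moved beside the members with MDI too. In B-cell deficient lungs 5 of 7 club cell markers, 4 of 6 basal cell markers and 4 of 5 squamous epithelium markers fell, and the mean log2 level of the squamous markers ranged from 4.31 to 6.99 with MDI, against 5.43 to 10.12 with control. All 5 measured eosinophil markers rose there, and 3 of 5 in C57BL/6 lungs, where 2 of 7 club cell and 2 of 7 ciliated cell markers fell. Of 5 fibroblast markers, 3 rose in each of these 2 sets. The shares of all probe sets were 16.2% higher and 20.7% lower in B-cell deficient lungs, and 5.30% and 9.23% in C57BL/6 lungs. Gastric epithelium, where Tff1 and Tff2 are best known, had 6 markers measured with a mean log2 level from 3.92 to 5.53 in all 49 arrays and none was called higher with MDI in any set. The part of the other markers in the members' results was not tested.

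Within groups, Tff2 varied with a small set of secreted airway proteins. After each value had its group mean subtracted, the 3 genes most like Tff2 over the 49 arrays were Scgb3a1 (Pearson r = 0.85), Bpifb1 (0.85) and Bpifa1 (0.82), a secretoglobin, also listed here among the club cell markers, and 2 antimicrobial proteins of airway secretions. For Scgb3a1 the r was 0.82 in B-cell deficient MDI lungs, 0.89 in B-cell deficient controls, 0.82 in C57BL/6 MDI lungs and 0.92 in C57BL/6 controls, and 0.83 over all arrays without the 2 farthest. Scgb3a1 itself was not called for MDI in any set, with log2 fold changes of 1.21 in BALB/c, 0.42 in B-cell deficient, -0.16 in crofelemer-treated and -0.03 in other C57BL/6 lungs, and it was lower with crofelemer, with log2 differences of -2.61 ± 0.60 in MDI lungs (adjusted p = 0.000494) and -2.47 ± 0.56 in control lungs (adjusted p = 0.000382). These correlations were picked as the highest of all genes and are descriptions over arrays that share their processing.

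**Figure D4:**
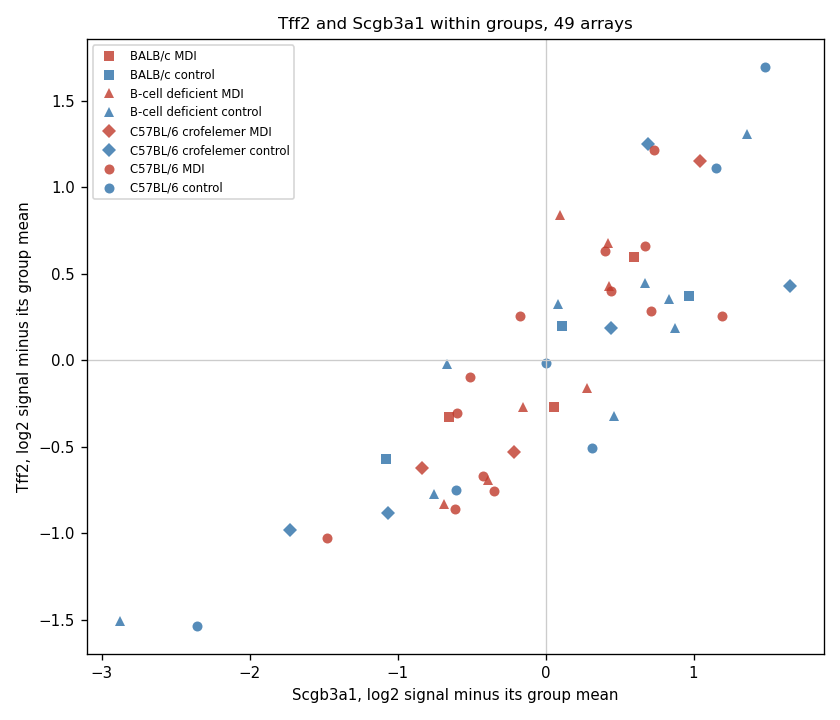
Tff2 (vertical axis) against Scgb3a1 (horizontal axis) in each of 49 arrays, both as log2 signal minus the mean of the array's group. Red symbols are MDI arrays and blue symbols control arrays, with a shape for each set of mice. The points rise together over all 8 groups (r = 0.85).

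For the other members the closest genes reached an r of at most 0.77. Agr2 was most like Nppa (r = 0.74), a cardiac peptide hormone, Reg3g (0.70), an antibacterial lectin, and Pigr (0.67), the receptor that carries immunoglobulin A across epithelium. Spdef was most like Fcgbp (0.62), a mucus protein, and Creb3l1 most like the histone gene H2bc14 (0.77). The nearest genes were Ucn for Foxa3 (0.71), Commd10 for Foxa2 (0.68), Gm10768 for Tff1 (0.65) and Cacna1b for Ern2 (0.58).

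Correlations between members were tested within the 4 groups of 6 or more arrays, 28 pairs in each, by permutation. A single pair passed adjustment over its 28: Spdef and Creb3l1 in the 13 C57BL/6 MDI lungs (Pearson r = 0.79, permutation p = 0.00087, adjusted p = 0.0244, Spearman rho = 0.77, permutation p = 0.00333, adjusted p = 0.0932). It was 0.75 without the 2 arrays farthest from the median of Spdef and 0.77 in the 12 arrays of 1 submission block. The r of this pair was 0.21 in B-cell deficient MDI lungs, -0.49 in B-cell deficient controls and 0.13 in C57BL/6 controls. Agr2 and Tff2 had an r of 0.89 in the 7 B-cell deficient MDI lungs (exact permutation p = 0.00774, adjusted p = 0.108, rho = 0.86, exact p = 0.0238) and 0.93 in the 6 C57BL/6 controls (exact permutation p = 0.00417, adjusted p = 0.117, rho = 0.94, exact p = 0.0167), which did not pass adjustment. Without the 2 arrays farthest from the median of Agr2 these were 0.94 and 0.83. In B-cell deficient controls the r of Agr2 and Tff2 was 0.55 (rho = 0.28) and in C57BL/6 MDI lungs 0.48 (rho = 0.38), and without the 2 farthest arrays -0.65 and -0.06.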

How the data were processed

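RNA from whole mouse lung was measured on a gene expression array, and the deposited values are the authors' log2 signals, 1 per probe set and array, made with Transcriptome Analysis Console per the submitters' processing notes. The sources used here give neither its version nor the normalization and background correction, and the log2 scale was read from the values, which run from 1.86 to 20.91. Array means differ by strain and crofelemer set, so the sets may have been processed separately. No detection calls were used, so a dim probe set was not told apart from background, and a level is compared only within its probe set. The number of arrays limits the precision.

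The labels placed 49 of 51 arrays in 8 groups, and 2 arrays whose labels contradict each other were left out of every comparison. Nothing in the labels says that arrays came from separate animals, so p-values measure the spread between these arrays. Limma 3.58.1 (R 4.3.3) fitted 1 model of 8 group means to all 22206 probe sets with 41 residual degrees of freedom and an intensity trend. Each of 9 comparisons was adjusted by Benjamini-Hochberg over all probe sets and called under 0.05. The procedure was tested on simulated data. Errors given with fold changes are standard errors. Overlap between groups was checked for the members and not for all probe sets, so it is given as a description.

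The members and gene lists were chosen with earlier results of these data known. Besides the members, up to 4 called genes of each list with the smallest adjusted p were named in comparisons that called a member, and Muc5ac, Muc5b, Clca1, Foxa1 and Tff3 in each comparison described. The 3 genes most like each member were those with the largest r over 49 arrays after the group means were subtracted. Symbols came from the platform annotation, and 2634 probe sets had none. Promoter windows came from RefSeq, build GRCm38.p6.

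Titles give the arrays replicate numbers. Same-numbered arrays deviated together in every pair (r of 0.105 to 0.167 over 3 pairs) for crofelemer against none in MDI lungs. Elsewhere they did not in every pair, though r reached 0.184 for MDI against control in C57BL/6 lungs. Arrays of different numbers were not correlated for comparison, so pairing was not shown. The main fits did not treat the numbers as pairs, and the replicate block was an alternative. The alternatives were median centring, quantile normalization, a filter on dim probe sets, array weights, no trend, only the arrays compared, the submission block as a term or its arrays alone, the replicate block, each array left out in turn and, chosen after seeing the data, leaving out 4 B-cell deficient controls with a narrow spread.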

Additional observations from a re-analysis of the deposited data

Results flagged for a closer look

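Among the groups tested, a single array stood apart: Foxa2 read 8.88 in C57BL/6 crofelemer control replicate 3, while the other 4 arrays of that group lay between 9.66 and 9.78. Its gap of 0.87 of the whole range exceeded Dixon's critical value of 0.71 for 5 arrays. The members gave 32 such tests, and chance marks about 1 in 20 groups. The test was not run in groups of 3 arrays or among the 13 C57BL/6 MDI arrays. Without this array the crofelemer difference of Foxa2 in control lungs was 0.08, not called.

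In each of the 2 arrays left out of all comparisons, some members lay above every C57BL/6 control array, with and without crofelemer, and others did not. How many of all probe sets lay above every control was not counted. In the array titled with crofelemer, Spdef read 5.56, against a highest control of 5.53, and Tff1 read 4.79, against 4.77. The other members did not exceed the controls there, among them Agr2 at 5.97, against 6.42, and Tff2 at 9.15, against 10.51. Of the goblet cell products, Clca1 read 15.94 there, against a highest control of 13.42, Muc5ac 7.85, against 7.04, and Muc5b 12.90, against 12.48. In the array titled without crofelemer, Spdef read 6.55, Tff1 read 4.86, Agr2 read 8.47, against a highest control of 6.42, and Tff2 read 11.13, against 10.51. Foxa3, Foxa2, Creb3l1 and Ern2 did not exceed the controls in it. Clca1 read 19.24, Muc5ac 11.99 and Muc5b 13.58 in that array. Both arrays are titled as MDI exposed. They were placed in no group and their crofelemer treatment was not assigned, since their labels contradict each other.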

How the results depend on the processing

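Agr2 and Tff2 kept their MDI calls in B-cell deficient and C57BL/6 lungs under every alternative that tested them, while the dim filter removed 5 members and left Foxa2, Creb3l1 and Tff2. The filter left 1 member higher in BALB/c, 2 in B-cell deficient and 1 in C57BL/6 lungs, and for crofelemer against none in MDI lungs 2 higher and 1 lower. In the last comparison 2 were higher after median centring or quantile normalization, 0 with the replicate block, and 0 to 2 when an array was left out. Foxa2 became the 1 lower member in B-cell deficient lungs after quantile normalization or without the 4 narrow arrays. For B-cell deficient minus C57BL/6, 1 was lower after median centring, 1 higher after quantile normalization or with the submission block as a term, and 0 to 1 higher when an array was left out. Leaving out an array left 1 to 2 members higher in BALB/c lungs and 0 to 1 lower for the crofelemer difference of MDI effects. The cause of these changes was not tested, apart from the filter, which tests fewer members.

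With the replicate block, 3 members were higher in C57BL/6 lungs, where Foxa3 and Tff1 lost their calls, and 1 in crofelemer-treated lungs (Tff2 at 1.91, adjusted p = 0.0464). In these sets 4 of 6 and 1 of 3 same-numbered pairs correlated over 0.1. Arrays of different numbers were not correlated for comparison, so these values cannot decide whether the arrays were paired. The replicate block reversed Creb3l1 in C57BL/6 lungs (0.03), Tff2 in the crofelemer difference of MDI effects (0.57), and Creb3l1 (-0.19), Agr2 (0.47) and Ern2 (-0.10) for BALB/c minus C57BL/6.

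All reversals, those with the replicate block included, were of uncalled effects. Median centring gave Foxa2 -0.005 in BALB/c lungs and, for crofelemer in control lungs, Foxa2 0.069, Ern2 0.015 and Tff1 0.032. Quantile normalization gave 0.12 for that Foxa2 difference and 0.011 for Tff1 in BALB/c minus C57BL/6. For B-cell deficient minus C57BL/6, Agr2 was 0.27 after quantile normalization, 0.10 with array weights, 0.049 with the block term, 0.19 within a block and 0.31 without the narrow arrays. Within a block, Agr2 was 0.09 for BALB/c minus C57BL/6 and Tff2 0.26 for the crofelemer difference.

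When an array was left out, Foxa2 ranged from -0.21 to 0.29 and Creb3l1 from -0.037 to 0.17 in BALB/c lungs, and Spdef from -0.046 to 0.32 and Foxa2 from -0.13 to 0.25 in crofelemer-treated lungs. For BALB/c minus C57BL/6 the ranges were -0.46 to 0.073 for Agr2, -0.064 to 0.29 for Ern2 and -0.32 to 0.10 for Tff1, and for B-cell deficient minus C57BL/6 -0.31 to 0.19 for Agr2. For crofelemer in control lungs they were -0.20 to 0.083 for Foxa2 and -0.044 to 0.21 for Creb3l1. Of the values of single members, 576 kept direction and side of the threshold when a setting was changed, 16 lost and 9 gained a call, and 18 changed direction. When an array was left out 1236 kept both, 29 lost and 8 gained a call, and 31 changed direction. These tallies pool called and uncalled values, so an effect that stayed uncalled in the same direction counts as kept.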
